A study of Homo sapiens with 9 samples.

Results

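FOXA1, GATA3, XBP1, SPDEF, TFAP2A, TFAP2C, ELF3, EHF and TBX3 are genes of transcription factors of the luminal, hormone-responsive layer of the breast epithelium. They were taken by gene name as written on the arrays, with every probe of that name, without use of any measured value. These 9 genes are among 43395 named on the arrays and among 20106 that were tested, and each was well above background on every array. They are read by 12 probes, all of which were tested. RNA came from T47D, an established luminal line of human breast cancer, as 3 stably transfected lines with 3 single-color arrays for each line. The T47D-PA6 line carries the full-length sequence of PTH-AS, a long noncoding RNA transcribed beside the parathyroid hormone gene. The T47D-PA5 line carries a fragment that lacks part of the 5′ side of PTH-AS, and the T47D-VC1 line carries the empty vector. The study used the incomplete fragment as a negative control and treated changes shared by T47D-PA5 and T47D-PA6 as nonspecific. All 3 lines were transfected with the same vector, pTARGET, and selected with G418, and each stands for a single selected line. The sources used here do not say whether the arrays of a line came from separate cultures, so p-values measure only the spread between these arrays, which may be technical.

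FOXA1 is a pioneer factor that opens chromatin where the estrogen receptor then binds, and GATA3 works with it at many of the same enhancers and is needed for luminal cells to form. TFAP2A and TFAP2C are AP-2 factors that also act at estrogen receptor sites, and SPDEF, ELF3 and EHF belong to the epithelial branch of the ETS family. TBX3 is a T-box factor that represses transcription and is needed for mammary development. XBP1 drives the secretory part of the unfolded protein response and is highly expressed in estrogen receptor-positive tumors.

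The probes say which stretch of each mRNA was read. The probe of SPDEF lies at chr6:34506107-34506166 and the brighter probe of TBX3 at chr12:115109654-115109713, on the minus strand of hg19 as the files give it, and each has reading frames without a stop codon. They are shown whole, 5′ to 3′ along the mRNA, because they stand for the part of the transcript that each signal reports.
SPDEF: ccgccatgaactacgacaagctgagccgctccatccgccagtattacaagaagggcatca
TBX3: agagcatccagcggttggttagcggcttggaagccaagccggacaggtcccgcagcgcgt
FOXA1 and TFAP2A each have 2 probes that gave different results, so the first 30 bases of each are shown. The brighter FOXA1 probe lies at chr14:38059546-38059605 and the dimmer at chr14:38064461-38064520, and the files list the dimmer with an Ensembl transcript alone. The brighter TFAP2A probe lies at chr6:10397026-10397085 and the dimmer at chr6:10402259-10402318, all 4 on the minus strand of hg19.
FOXA1, brighter probe: attacaatgttggaggagagataagttata
FOXA1, dimmer probe: agaggacgaggaggtgggcactcaagcgac
TFAP2A, brighter probe: gggtatcatttagatattccactgtgtctg
TFAP2A, dimmer probe: gaccatcctgaaagctcagggttatgtgcc

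Signals are background-subtracted intensities after quantile normalization between the arrays, and a line's level is the mean of 3 arrays on the log2 scale, written as an intensity. Differences are log2 fold changes from limma with their standard errors, and p-values were adjusted over all 20106 genes. The mean of a line rests on 3 arrays, and this number limits the precision. Across the arrays, 44.0% to 48.0% of the probes passed as well above background, and saturation was marked at no spot. Replicates 2 and 3 of a line were closer to each other than to replicate 1. Over all tested genes, the median absolute log2 difference was 0.0853 to 0.108 between replicates 2 and 3 of a line and 0.210 to 0.268 between replicate 1 and either of them. Replicate 1 of all 3 lines shared a slide and an earlier scan run, and the other 6 arrays were scanned in a later run.

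The first comparison asks whether full-length PTH-AS goes with a change in these genes. Of the 9 genes, 0 passed an adjusted p of 0.05 in T47D-PA6 over T47D-VC1, where 10.03% of all tested genes passed. FOXA1 alone was under 0.05 before adjustment in limma, at 0.0473 (adjusted p = 0.18), where 5341 of all genes, 26.6%, were. Over the 9 genes the median was -0.05 on the log2 scale, beside -0.03 over all tested genes, with 3 genes higher and 6 lower. The largest rise measured was that of ELF3 (log2 0.38 ± 0.28, SE, adjusted p = 0.44, limma) and the largest fall that of TFAP2C (log2 -0.27 ± 0.18, SE, adjusted p = 0.39, limma), and neither passed the test. No gene of the 9 had a ratio above 2 or below 0.6, the limits of the study's methods, which 7.64% of all tested genes passed. The 3 arrays of T47D-PA6 did not overlap those of T47D-VC1 for 2 of the 9 genes, FOXA1 and XBP1, where 30.9% of all genes did not overlap.

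The incomplete fragment gave the same count. In T47D-PA5 over T47D-VC1, 0 of the 9 genes passed, against 1.67% of all tested genes, and 0 had an unadjusted p under 0.05 in limma, where 3133 of all genes, 15.6%, did. Over the 9 genes the median was -0.12 on the log2 scale, beside -0.03 over all genes. XBP1 was the only gene of the 9 whose arrays did not overlap, where 23.3% of all genes did not, and 0 of the 9 passed the ratio limits that 3.92% of all genes passed. In T47D-PA6 over T47D-PA5, the comparison of complete with incomplete PTH-AS, 0 of the 9 genes passed and 9.71% of all tested genes did, and 0 of the 9 had an unadjusted p under 0.05 in limma, where 5002 of all genes, 24.9%, did. The median of the 9 genes was 0.10, beside -0.001 over all genes. The arrays of these lines overlapped for all 9 genes, where 32.7% of all genes did not overlap. By the methods' t-test the 9 genes gave 1 (FOXA1, in T47D-PA6 over T47D-VC1), 0 and 0 unadjusted and 0 in each comparison after Benjamini-Hochberg adjustment, where 22.1%, 14.98% and 24.2% of all genes had an unadjusted p under 0.05. The comparisons share arrays, so their values for a gene are not independent of each other.

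A p that misses the threshold does not show that the levels were equal, and the intervals give the sizes that these arrays allow. Of the 27 intervals, 9 genes in 3 comparisons, 25 lay within 1 log2 unit on either side of 0. The other 2 were those of ELF3 in T47D-PA6 over T47D-VC1, from -0.26 to 1.02, and of EHF in T47D-PA5 over T47D-VC1, from -1.01 to 0.51. The narrowest were those of XBP1 and FOXA1. Each is spotted 10 times on the array, and whether this narrowed the intervals, which rest on the spread between arrays, was not tested. The SD of the log2 signal among these 10 spots of an array was 0.0319 to 0.0666 for FOXA1 and 0.0334 to 0.0652 for XBP1.

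**Figure D1:**
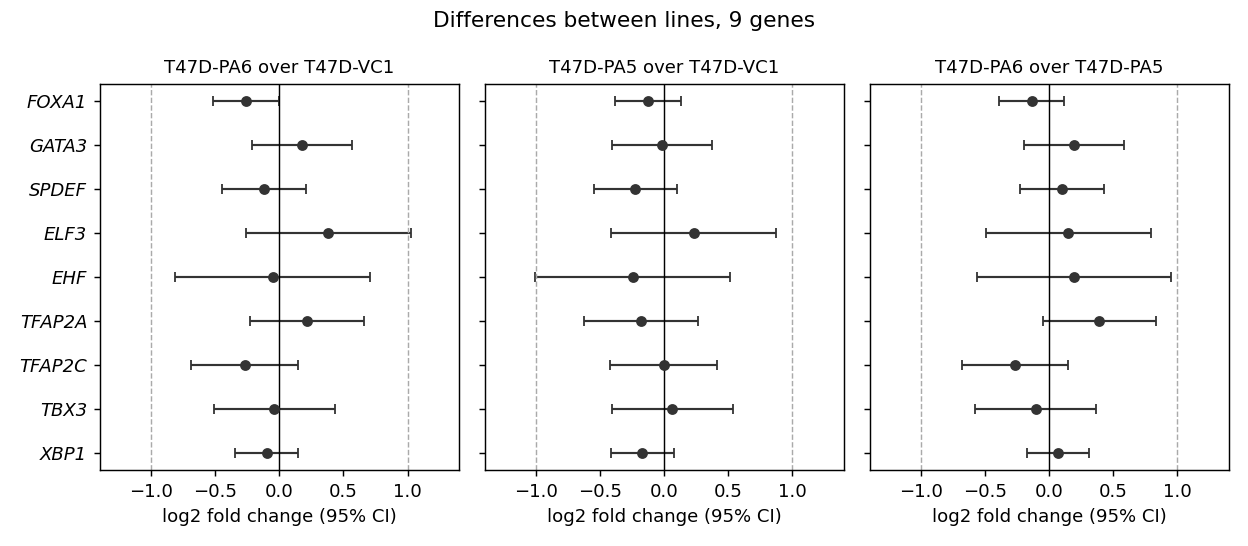
Log2 fold change of each of the 9 genes (points) with its 95% confidence interval from limma, unadjusted (bars), for the 3 comparisons of lines, with dashed lines at -1 and 1. All intervals except that of FOXA1 in T47D-PA6 over T47D-VC1, from -0.52 to -0.004, include 0, and the interval of EHF is the widest in each comparison.

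FOXA1 gave signals of 9000, 9843 and 9826 on the T47D-VC1 arrays, 7641, 9771 and 9000 on the T47D-PA5 arrays and 8307, 7821 and 7808 on the T47D-PA6 arrays. The T47D-PA6 arrays were all below the T47D-VC1 arrays, and the T47D-PA5 arrays spanned both. Its log2 fold change was -0.26 ± 0.11 (SE), a ratio of 0.835, for T47D-PA6 over T47D-VC1, with an adjusted p of 0.18 by limma. The dimmer FOXA1 probe read 51.6 to 63.3 for T47D-VC1, 32.0 to 49.3 for T47D-PA5 and 33.8 to 43.5 for T47D-PA6, so that T47D-PA5 and T47D-PA6 lay below T47D-VC1 on every array. Its log2 fold changes were -0.57 ± 0.18 (SE) for T47D-PA6 and -0.56 ± 0.18 (SE) for T47D-PA5 over T47D-VC1, with limma p-values adjusted over all tested probes of 0.074 and 0.17. Both FOXA1 probes were thus lower in the T47D-PA6 line than in the T47D-VC1 line, and neither passed. At the dimmer probe, T47D-PA6 over T47D-PA5 measured -0.009 ± 0.18 (SE) on the log2 scale.

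GATA3 gave 29981, 21661 and 22706 in T47D-VC1, 19285, 27341 and 27011 in T47D-PA5 and 28265, 27571 and 27341 in T47D-PA6. The T47D-PA6 arrays were close together (SD 0.02 on the log2 scale), while replicate 1 was the highest array of T47D-VC1 and the lowest of T47D-PA5. The log2 fold changes were 0.18 ± 0.17 (SE) in T47D-PA6 and -0.02 ± 0.17 (SE) in T47D-PA5 over T47D-VC1, and neither passed (adjusted p = 0.57 and 0.98, limma).

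**Figure D2:**
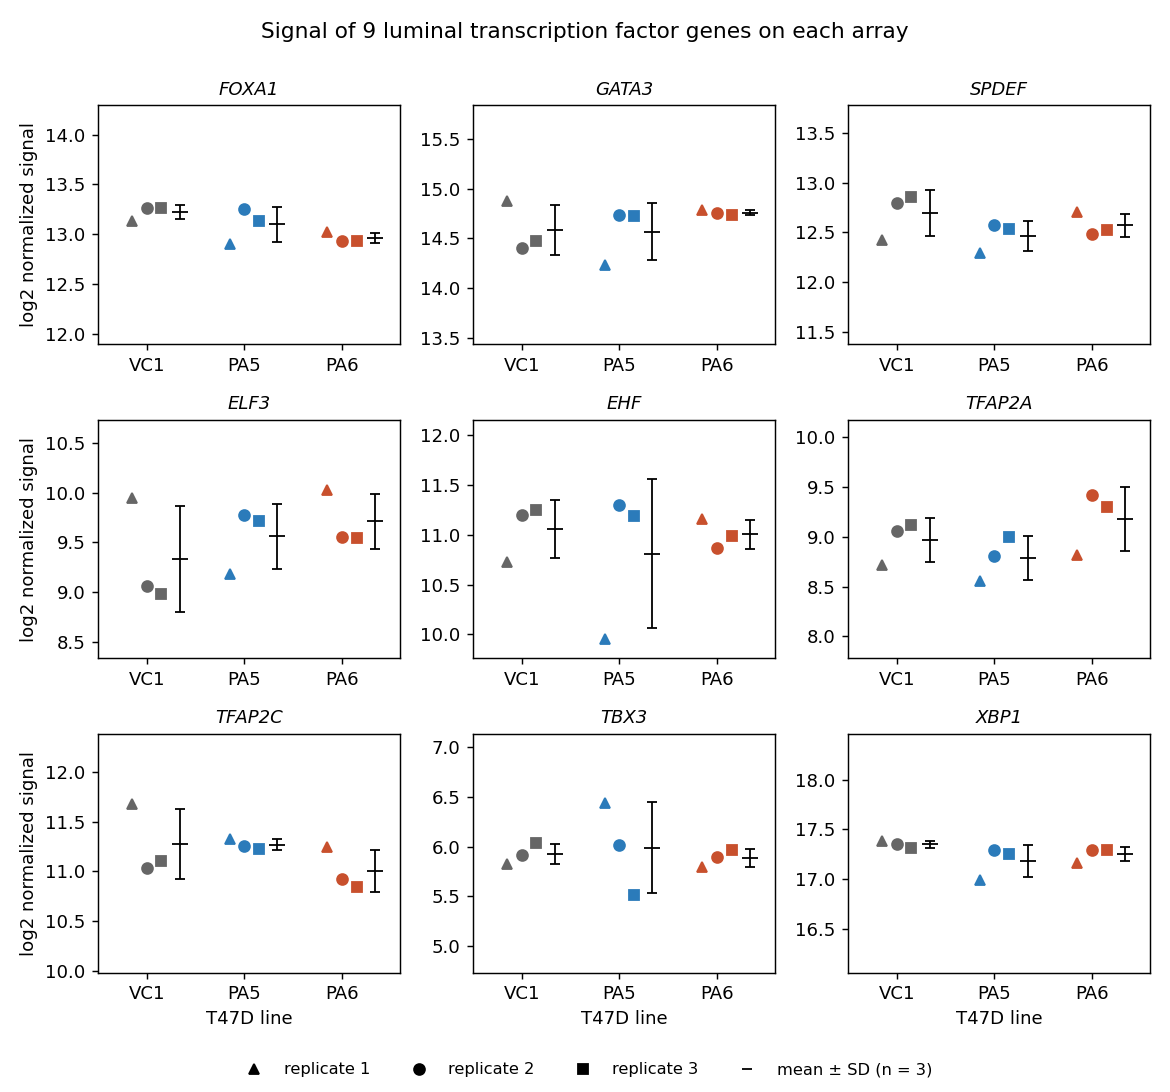
Log2 normalized signal of the 9 genes, 1 panel a gene, on each of the 9 arrays by line, with replicates as triangles, circles and squares and the mean ± SD of 3 arrays as black bars. Each panel spans the same 2.4 log2 units, and replicate 1 often stands apart from replicates 2 and 3 of its line, as for EHF in T47D-PA5 at 989 against 2519 and 2329.

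Among the epithelial ETS factors, SPDEF is a factor of luminal and secretory cells. It gave 5503, 7122 and 7392 in T47D-VC1, 5020, 6098 and 5930 in T47D-PA5 and 6675, 5733 and 5876 in T47D-PA6. The ranges of the 3 lines overlapped, and the log2 fold changes were -0.12 ± 0.14 (SE) for T47D-PA6 and -0.22 ± 0.14 (SE) for T47D-PA5 over T47D-VC1 (adjusted p = 0.64 and 0.52, limma). ELF3, which epithelial cells raise in response to inflammatory signals, gave 983, 536 and 506 in T47D-VC1, 582, 877 and 841 in T47D-PA5 and 1044, 754 and 748 in T47D-PA6. Its replicate 1 was the highest array of T47D-VC1 and of T47D-PA6 and the lowest of T47D-PA5. EHF, a factor of differentiated glandular epithelium, gave 1695, 2354 and 2430 in T47D-VC1, 989, 2519 and 2329 in T47D-PA5 and 2282, 1874 and 2030 in T47D-PA6. The SD of EHF in T47D-PA5 was 0.75 on the log2 scale, the largest of the 9 genes in any line, and rested on replicate 1.

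TFAP2A gave 421, 535 and 557 in T47D-VC1, 377, 447 and 512 in T47D-PA5 and 450, 687 and 632 in T47D-PA6. Replicate 1 was the lowest array of every line. Between T47D-PA6 and T47D-PA5 the log2 difference was 0.39 ± 0.19 (SE), the largest difference of the 9 genes in any comparison, with an adjusted p of 0.25 by limma. The dimmer TFAP2A probe did not follow the brighter probe. It read 54.1 to 76.6 for T47D-VC1, 42.8 to 52.0 for T47D-PA5 and 38.3 to 58.9 for T47D-PA6, and T47D-PA6 over T47D-VC1 measured -0.36 ± 0.19 (SE) on the log2 scale, beside 0.21 ± 0.19 (SE) at the brighter probe. Neither value passed, with limma adjusted p-values over all probes of 0.27 and 0.53.

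TFAP2C gave 3278, 2102 and 2207 in T47D-VC1, 2571, 2441 and 2400 in T47D-PA5 and 2432, 1941 and 1838 in T47D-PA6. Replicate 1 was the highest array of every line, opposite to TFAP2A. The log2 fold changes were -0.27 ± 0.18 (SE) for T47D-PA6 and -0.005 ± 0.18 (SE) for T47D-PA5 over T47D-VC1 (adjusted p = 0.39 and 1, limma). TBX3 was near the dim end of the scale, where the lowest signal well above background was 12.5 on the first T47D-VC1 array. It gave 56.9, 60.4 and 65.5 in T47D-VC1, 86.6, 64.9 and 45.8 in T47D-PA5 and 55.4, 59.7 and 62.7 in T47D-PA6, with overlapping ranges. The second TBX3 probe read 16.3 to 28.4 for T47D-VC1, where 2 of 3 arrays were well above background, 23.1 to 30.7 in T47D-PA5 and 25.1 to 28.5 in T47D-PA6. Its log2 fold changes, 0.35 ± 0.20 (SE) and 0.37 ± 0.20 (SE) over T47D-VC1, did not pass either, with limma adjusted p-values over all probes of 0.32 and 0.44.

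XBP1 gave 170930, 167059 and 163154 in T47D-VC1, 130356, 160671 and 156063 in T47D-PA5 and 146969, 160670 and 160670 in T47D-PA6. Every T47D-PA5 and T47D-PA6 array was below every T47D-VC1 array. The differences were small, with log2 fold changes of -0.17 ± 0.11 (SE) for T47D-PA5 and -0.10 ± 0.11 (SE) for T47D-PA6 (adjusted p = 0.51 and 0.61, limma). The probe does not separate spliced from unspliced XBP1 mRNA, since the files list it with RefSeq transcripts of both forms, so the splicing by which the protein is activated was not measured.

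For the 9 genes, replicate 1 stood apart from the later replicates of the same line. The median absolute log2 difference of replicate 1 from the mean of replicates 2 and 3 was 0.34 over the 9 genes in 3 lines, beside 0.06 between replicates 2 and 3 and 0.17 between the means of lines. A mean of 3 arrays spreads less than a single array, so the first and last of these are not on equal terms. Over all tested genes, the median absolute difference between lines was 0.16 to 0.21. T47D-PA5 replicate 1 had the lowest signal of all 9 arrays for 6 of the 9 genes, FOXA1, GATA3, XBP1, SPDEF, TFAP2A and EHF, where it was lowest for 13.0% of all genes. For TBX3 it was the highest.

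Differences within a scan run disagreed in sign for 3 to 5 of the 9 genes, depending on the comparison. The share over all genes was not counted, and a difference near 0 can take either sign. In T47D-PA6 over T47D-VC1, the runs gave 6 of the 9 genes the same sign, among them FOXA1 (-0.12 and -0.33 on the log2 scale), and 3 did not, GATA3, SPDEF and EHF. In T47D-PA5 over T47D-VC1 and in T47D-PA6 over T47D-PA5, 4 of the 9 genes had the same sign. The widest disagreement was that of EHF in T47D-PA6 over T47D-PA5, 1.21 in the earlier and -0.31 in the later run, and that of ELF3 in T47D-PA5 over T47D-VC1, -0.76 and 0.72. What separates the runs, apart from slide and scan, is not given in the sources used here, and its part in these differences was not tested.

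**Figure D3:**
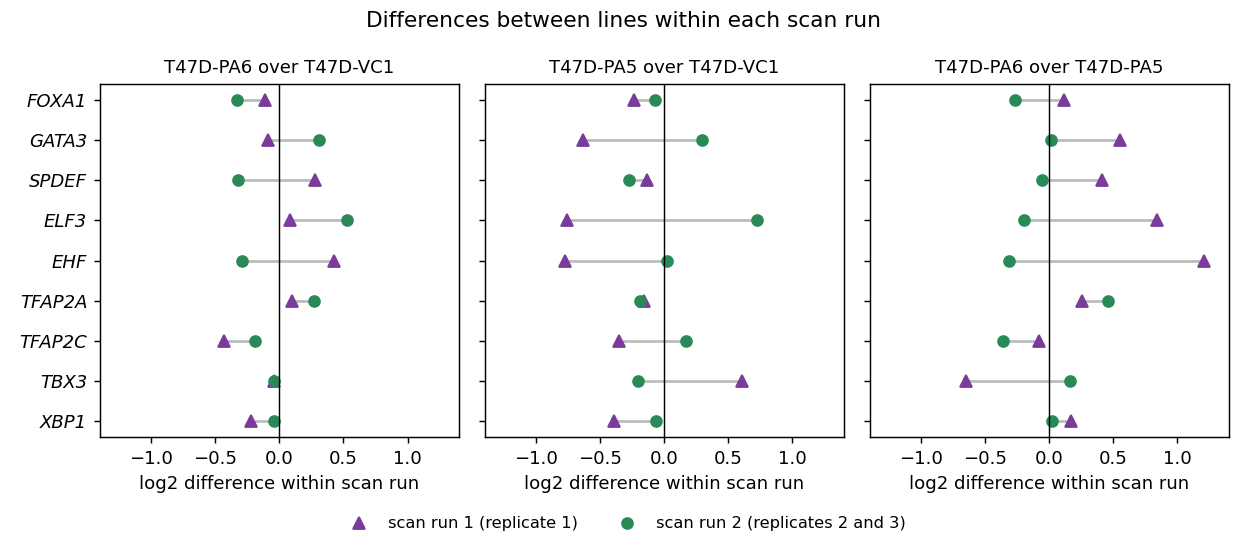
Log2 difference between lines within the earlier scan run (triangles, 1 array a line) and within the later (circles, means of 2 arrays a line) for the 9 genes, joined by a gray line for each gene. Symbols on opposite sides of 0 mark genes whose direction differed between runs, 3, 5 and 5 of the 9 in the 3 panels from left to right.

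With the later run alone, replicates 2 and 3, part of the 9 genes passed. In T47D-PA6 over T47D-VC1, 5 of the 9 passed an adjusted p of 0.05 by limma, where 35.2% of all genes did. FOXA1 (log2 -0.33), SPDEF (-0.32) and EHF (-0.29) were lower and ELF3 (0.53) and GATA3 (0.31) higher, with adjusted p-values of 0.0047 to 0.039. In T47D-PA5 over T47D-VC1, 3 of the 9 passed, beside 18.9% of all genes, ELF3 (0.72) and GATA3 (0.29) higher and SPDEF (-0.27) lower. In T47D-PA6 over T47D-PA5, 4 of the 9 passed, beside 33.8% of all genes, TFAP2A (0.46) higher and TFAP2C (-0.36), EHF (-0.31) and FOXA1 (-0.26) lower. Replicate 1 had the opposite sign for SPDEF, GATA3 and EHF in T47D-PA6 over T47D-VC1. It also did for ELF3 (-0.76) and GATA3 (-0.64) in T47D-PA5 over T47D-VC1, and for FOXA1 (0.12) and EHF (1.21) in T47D-PA6 over T47D-PA5. When replicates 2 and 3 of each line were averaged to 1 value instead, 0 of the 9 genes passed in each comparison, and 89, 6 and 15 of all genes did.

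Other regulators of luminal and epithelial cells were measured beside the 9 genes in a list of 24, all of which were tested. In T47D-PA6 over T47D-VC1, 0 rose and PGR fell, 4.17% of the list, where 10.03% of all tested genes passed. The median log2 fold change of the list was -0.04. PGR, the progesterone receptor and a target of the estrogen receptor, gave 17130, 14117 and 14167 in T47D-VC1 and 7942, 6864 and 6850 in T47D-PA6. All T47D-PA6 arrays were below the 9053 to 13318 of T47D-PA5 as well, and against the T47D-VC1 mean PGR fell by 1.07 in log2 units (adjusted p = 0.0072, limma). In T47D-PA6 over T47D-PA5, CITED2, a coactivator of AP-2 factors, was also higher (log2 0.81, adjusted p = 0.026, limma) and PGR lower (-0.69, adjusted p = 0.037, limma). In T47D-PA5 over T47D-VC1, 0 of the 24 passed, where 1.67% of all tested genes did. In T47D-PA6 over T47D-PA5, 8.33% of the list passed, where 9.71% of all did. The estrogen receptor gene ESR1 had means of 2795 for T47D-VC1, 2850 for T47D-PA5 and 2695 for T47D-PA6 and did not pass (adjusted p = 0.89 in T47D-PA6 over T47D-VC1, limma). PGR against T47D-VC1 passed with each array left out in turn. PGR against T47D-PA5 passed only without replicate 1 of a line (up to 0.13) and not with the slide or the replicate number as a block (0.088 and 0.061), and CITED2 did not pass without any T47D-PA5 array or T47D-PA6 replicate 2 or 3 (up to 0.10).

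Of 26 relatives from the families of the 9 genes, 15 were tested, and 7 were not well above background on any array, FOXA3, TFAP2B, TFAP2D, ETS1, ETS2, ETV5 and TBX5. CREB3L4, a membrane-bound bZIP factor of the secretory pathway, was the only relative that passed. In T47D-PA6 this was 6.67% of the tested relatives, beside 10.03% (over T47D-VC1) and 9.71% (over T47D-PA5) of all genes. CREB3L4 gave 7984, 10893 and 11088 in T47D-VC1, 10487, 13444 and 13164 in T47D-PA5 and 7117, 5211 and 5225 in T47D-PA6. Its log2 fold changes in T47D-PA6 were -0.77 ± 0.18 (SE) against T47D-VC1 (adjusted p = 0.036, limma) and -1.09 ± 0.18 (SE) against T47D-PA5 (adjusted p = 0.010, limma). The first did not pass without replicate 2 or 3 of any line (adjusted p up to 0.13) or with the slide or the replicate number as a block (0.073 and 0.052), and the second passed with each array left out. ELF5, the ETS factor of luminal progenitors, had means of 14859 for T47D-VC1, 10653 for T47D-PA5 and 11949 for T47D-PA6 and did not pass (adjusted p = 0.32 and 0.39 for T47D-PA5 and T47D-PA6 over T47D-VC1, limma).

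CREB3L4 lies on chromosome 1 past position 142000000 of hg19, as ELF3 does. The 909 tested genes there had median log2 fold changes of -0.20 for T47D-PA6 over T47D-VC1, 0.32 in T47D-PA5 over T47D-VC1 and -0.57 in T47D-PA6 over T47D-PA5. Over T47D-VC1, 124 of these 909 genes were called lower and 24 higher in T47D-PA6, where 5.34% and 4.69% of all tested genes were. In T47D-PA5 over T47D-VC1, 1 was called lower and 54 higher, where 0.298% and 1.37% of all were. For T47D-PA6 over T47D-PA5, 414 of the 909 were called lower and 10 higher, where 6.06% and 3.65% of all were. ELF3 at chr1:201984429-201984488 measured 0.15 in that comparison and did not pass. The part of this stretch in the values of the genes on it was not tested.

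The unfolded protein response genes around XBP1 gave 31 tested of 32, and T47D-PA6 over T47D-VC1 had a median of 0.09 on the log2 scale. Of these, 3 rose, DDIT3, WFS1 and HERPUD1, and SEC61B fell, 12.9% of the tested list beside 10.03% of all tested genes. DDIT3, the stress factor CHOP, gave 1756, 965 and 948 in T47D-VC1, 940, 841 and 847 in T47D-PA5 and 2349, 2927 and 2871 in T47D-PA6. It was highest in T47D-PA6 on every array, by 1.21 ± 0.23 (SE) on the log2 scale over T47D-VC1 (adjusted p = 0.016, limma) and by 1.63 ± 0.23 (SE) over T47D-PA5 (adjusted p = 0.0058, limma). WFS1, a protein of the endoplasmic reticulum membrane, rose over T47D-VC1 in both other lines, from a mean of 1792 to 3251 in T47D-PA5 (log2 0.86, adjusted p = 0.0040, limma) and 4071 in T47D-PA6 (log2 1.18, adjusted p = 0.00048, limma). In T47D-PA5 over T47D-VC1, WFS1 was the only gene of the list that passed, 3.23% of the tested list beside 1.67% of all tested genes. HERPUD1, which acts in the degradation of misfolded proteins, rose in T47D-PA6 by 0.56 on the log2 scale over T47D-VC1 (adjusted p = 0.042, limma) and 0.68 over T47D-PA5 (adjusted p = 0.022, limma). SEC61B, a subunit of the translocation channel, fell by 0.55 (adjusted p = 0.017, limma) and 0.52 (adjusted p = 0.021, limma). Over T47D-PA5, ATF4 (0.66, adjusted p = 0.038, limma) and the XBP1-splicing kinase gene ERN1 (0.59, adjusted p = 0.045, limma) also passed. In that comparison 16.1% of the tested list passed, beside 9.71% of all tested genes.

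HSPA5 and DNAJB9, chaperone genes of the same response, measured 0.38 and 0.26 on the log2 scale in T47D-PA6 over T47D-VC1 and did not pass (adjusted p = 0.22 and 0.42, limma). WFS1 and, over T47D-PA5, DDIT3 passed with each array left out in turn. DDIT3 over T47D-VC1 did not pass without replicate 2 or 3 of T47D-VC1 or of T47D-PA6 (adjusted p up to 0.067). HERPUD1 over T47D-VC1 passed only without replicate 1 of T47D-VC1 or of T47D-PA5 (up to 0.15), and over T47D-PA5 it did not pass without T47D-PA5 replicate 3 or T47D-PA6 replicate 2 or 3 (up to 0.091). SEC61B over T47D-VC1 was lost without T47D-VC1 replicate 3 or T47D-PA6 replicate 2 or 3 (up to 0.076), and over T47D-PA5 without any T47D-PA5 array or T47D-PA6 replicate 2 or 3 (up to 0.090). ATF4 passed only without replicate 1 of a line (up to 0.14), and ERN1 only without replicate 1 of T47D-VC1 or of T47D-PA6 (up to 0.15). With the slide or the replicate number as a block, HERPUD1 over T47D-VC1 (0.061 and 0.056), ATF4 (0.089 and 0.059) and ERN1 (0.097 and 0.070) did not pass.

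**Figure D4:**
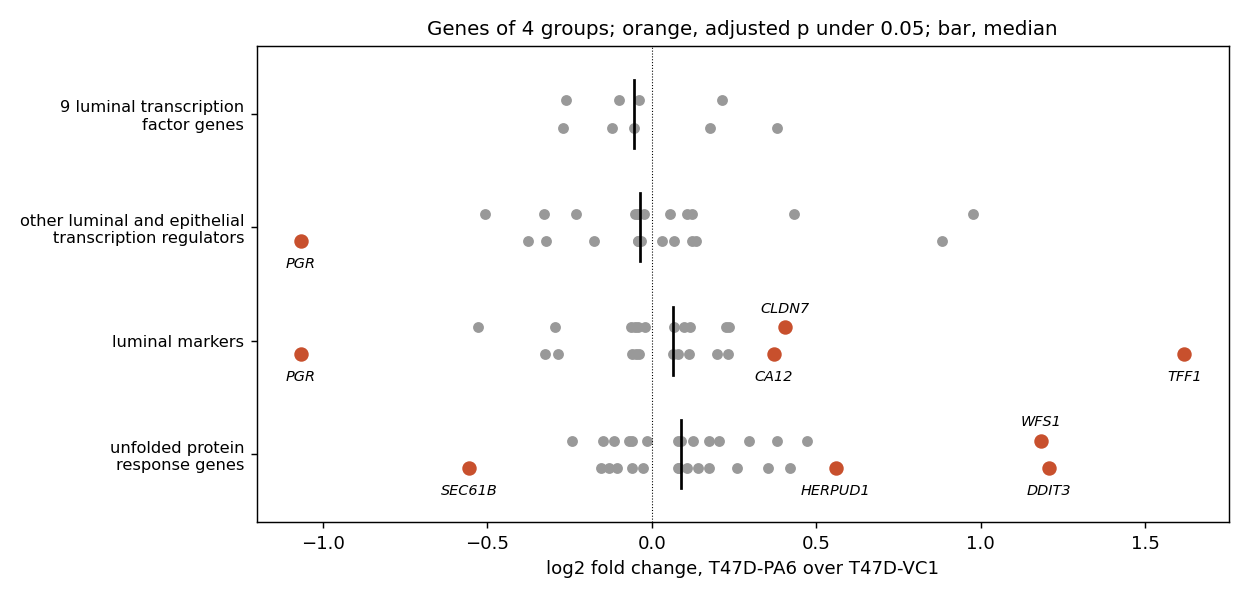
Log2 fold changes for T47D-PA6 over T47D-VC1 (horizontal axis) among the tested genes of 4 groups (rows), with genes of adjusted p under 0.05 in orange and named, other genes in gray and each group's median as a black bar. The 9 transcription factor genes are all gray, within -0.27 to 0.38, while PGR at -1.07 and TFF1 at 1.62 are the outermost named points.

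Markers of luminal cells were present in all 3 lines. Of 26 luminal markers, 25 passed as well above background on every array, and their summed signal was 764946 to 817872 for T47D-VC1, 784613 to 823300 for T47D-PA5 and 788422 to 840854 for T47D-PA6. KRT19 alone had means of 301366 for T47D-VC1 and T47D-PA5 and 292579 for T47D-PA6. The sums thus follow the brightest markers and cannot show a change in dimmer ones. Quantile normalization gives probes of the same rank the same value on every array. Equal means of KRT19 therefore do not show equal RNA levels, and the sums that it dominates carry the same limit. In T47D-PA6 over T47D-VC1, TFF1, CLDN7 and CA12 rose and PGR fell, 16% of the tested list beside 10.03% of all tested genes. The median of the list was 0.07. TFF1, a secreted trefoil peptide and estrogen receptor target, gave 1234, 1410 and 1411 in T47D-VC1, 1966, 1656 and 1692 in T47D-PA5 and 5291, 3530 and 3808 in T47D-PA6. It rose by 1.62 ± 0.16 (SE) on the log2 scale over T47D-VC1 (adjusted p = 0.0011, limma) and 1.23 over T47D-PA5 (adjusted p = 0.0045, limma), opposite to PGR, and passed with each array left out in turn. CLDN7, a tight junction protein, rose by 0.41 (adjusted p = 0.040, limma) and 0.48 (adjusted p = 0.022, limma), and CA12, a carbonic anhydrase, by 0.37 over T47D-VC1 (adjusted p = 0.047, limma). Over T47D-PA5, ANXA9, on the same stretch of chromosome 1 as CREB3L4, was lower (-0.90, adjusted p = 0.014, limma). In T47D-PA5 over T47D-VC1, 0 of the 25 passed, where 1.67% of all tested genes did. In T47D-PA6 over T47D-PA5, 16% of the tested list passed, where 9.71% of all did. CLDN7 over T47D-VC1 passed only without replicate 1 of T47D-PA5 or of T47D-PA6 (otherwise up to 0.14), and CA12 only without replicate 1 of T47D-PA6 (otherwise up to 0.17). CLDN7 and ANXA9 over T47D-PA5 did not pass without replicate 2 or 3 of T47D-PA5 or of T47D-PA6 (up to 0.093 and 0.064).

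Of 24 basal and myoepithelial markers, 14 were tested, and KRT5, TP63, CAV1, CAV2, EN1, SNAI2 and ZEB1 reached well above background on no array. The list had a median log2 fold change of 0.34 in T47D-PA6 and 0.33 in T47D-PA5 over T47D-VC1, with VIM, described below, among the tested genes. The summed signal of the tested markers was 8169 to 10638 for T47D-VC1, 13466 to 13738 for T47D-PA5 and 10606 to 10951 for T47D-PA6. VIM, an intermediate filament of mesenchymal cells, read 34.8, 91.3 and 96.9 in T47D-PA6 and 22.9 to 26.2 in T47D-PA5, and stayed below the limit for well above background on all T47D-VC1 arrays. The rise over T47D-VC1 was at least 5.41-fold for T47D-PA6 and at least 1.997-fold for T47D-PA5. A bound sets the line's mean against, on each T47D-VC1 array, the VIM signal or the dimmest signal there that was well above background, whichever was higher. The limma adjusted p-values, 0.0012 and 0.031, come from a fit that used the T47D-VC1 readings below that limit. VIM was tested only because it was well above background in T47D-PA5 and T47D-PA6, so these p-values add no support to the rise. FOXC1 (log2 0.65, adjusted p = 0.012, limma) and CDH3 (0.52, adjusted p = 0.032, limma) also rose in T47D-PA6, and CDH3 rose in T47D-PA5 (0.73, adjusted p = 0.024, limma). With VIM counted, 21.4% of the tested list passed in T47D-PA6 over T47D-VC1, beside 10.03% of all tested genes. For T47D-PA5 over T47D-VC1 the share was 14.3%, beside 1.67% of all. Over T47D-PA5, VIM was higher and S100A2 (-0.74), ITGB4 (-0.70) and MYLK (-0.84) were lower in T47D-PA6, 28.6% of the tested list beside 9.71% of all genes. S100A2 lies at chr1:153533831-153533890, on the same stretch of chromosome 1 as CREB3L4 and ANXA9. S100A2 passed with each array left out. VIM in T47D-PA6 over T47D-VC1 did too, but by p-values that, as said above, add no support to its rise. VIM in T47D-PA5 over T47D-VC1 did not pass without any array of T47D-VC1 or T47D-PA5 (adjusted p up to 0.13), nor FOXC1 without T47D-VC1 replicate 3 or T47D-PA6 replicate 2 (up to 0.057). With normexp background correction at an offset of 50, VIM measured log2 0.91 in T47D-PA6 and 0.34 in T47D-PA5 over T47D-VC1. The adjusted p-values were 0.0072 and 0.33 by limma. Both rises are under the bounds above, which thus depend on the background correction. CDH3 in both lines was lost without T47D-VC1 replicate 3 or replicate 2 or 3 of T47D-PA5 or of T47D-PA6 (up to 0.11). Over T47D-PA5, VIM, ITGB4 and MYLK did not pass without any T47D-PA5 array or T47D-PA6 replicate 2 or 3 (up to 0.13, 0.085 and 0.16), nor VIM and MYLK without T47D-VC1 replicate 2 or 3. MYLK did not pass with the slide or the replicate number as a block (0.10 and 0.077), nor ITGB4 with the slide (0.052).

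Of 22 stromal, endothelial and leukocyte markers, 7 were tested and 11 reached well above background on no array, among them COL1A2, DCN, PECAM1 and CD3E. Their summed signal was 973 to 1027 for T47D-VC1, 1322 to 1346 for T47D-PA5 and 945 to 1072 for T47D-PA6. CD14 was higher (log2 1.80, adjusted p = 0.0082, limma) and COL1A1 lower (-0.50, adjusted p = 0.020, limma) in T47D-PA6 compared with T47D-VC1, and THY1 was lower than in T47D-PA5 (-2.03, adjusted p = 0.032, limma). These calls were 28.6% of the 7 over T47D-VC1, beside 10.03% of all genes, and 14.3% over T47D-PA5, beside 9.71%. CD14 passed with each array left out, COL1A1 not without T47D-VC1 replicate 3 or T47D-PA6 replicate 2 (up to 0.082), and THY1 not without replicate 2 or 3 of T47D-VC1 or of T47D-PA6 or T47D-PA5 replicate 3 (up to 0.12). With replicates 2 and 3 averaged to 1 value a line, 0 of the calls named for the lists passed, all in the same direction, in a fit of fewer samples.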

How the data were processed

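RNA of 3 T47D lines was measured on 9 SurePrint G3 v3 arrays. The authors deposited background-subtracted spot intensities from Feature Extraction (10.7.1.1 in the files, 9.5.1.1 in the submitters' processing notes), and other columns used were their flags. Of 62976 spots, 60901 were not controls and stood for 58201 probes, and 46 to 117 outlier spots per array were left out. Log2 values were averaged over the spots of each probe and quantile-normalized, as in the study's methods. Probes well above background on all arrays of at least 1 line were tested, each gene by its brightest probe (26171 probes, 20106 genes). Names were updated with a RefSeq gene table by symbol (31127 probes), accession (3342) or synonym (497), and 23235 were kept. The files give positions on hg19.

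R 4.3.3 with limma 3.58.1 (lmFit, eBayes) fitted the 9 arrays together, with Benjamini-Hochberg adjustment at 0.05, after being tested on simulated data. Files were read and plotted with pandas 2.3.3 and matplotlib 3.10.9. The 9 genes and the lists were chosen with earlier results of these data known. Named genes are the 9 and, from each list, up to 3 largest rises and falls that passed. A gene of 1 list is not reported here. ERN1, ESR1, ELF5, HSPA5 and DNAJB9 were named after their values were seen. Genes of similar pattern were to be named only for a gene of the 9 that passed, and 0 did. Alternatives covered normalization, background correction, filters, blocks, arrays left out, the prior variance, the test, the lines fitted and the probe rule.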

Additional observations from a re-analysis of the deposited data

How the results depend on the processing

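The count of the 9 genes that passed was 0 in each comparison under 21 of the 22 alternatives, among them the 75th percentile shift, normexp, the authors' normalized table, both other filters, the slide block, the methods' t-test and each array left out in turn (lowest 0, highest 0). The exception was the later scan run alone (replicates 2 and 3 only), with 5, 3 and 4 in T47D-PA6 over T47D-VC1, T47D-PA5 over T47D-VC1 and T47D-PA6 over T47D-PA5. There, GATA3 in T47D-PA5 over T47D-VC1 turned from -0.02 to 0.29 and EHF in T47D-PA6 over T47D-PA5 from 0.19 to -0.31 on the log2 scale. The cause was not tested. Averaging replicates 2 and 3 was chosen after seeing the data. With the replicate block the 9 genes gave 0, 0 and 0, and all genes 2617, 490 and 2427. Deviations of same-numbered arrays correlated at 0.0995 to 0.337, with 8 of 9 pairs above 0.1, and 4 of 9 arrays correlated best with their own number. Replicate 1 of all lines shared a slide and scan run of its own, and T47D-PA6 replicate 2 shared the slide of replicate 3 of all lines. Counts over all genes without 1 array ran from 698 to 2771, 100 to 593 and 713 to 2963. Other counts moved by over 1.5 times, from 2017, 335 and 1952, were 1285, 198 and 1262 without a filter, 608 in T47D-PA5 with the slide block, 432, 39 and 790 by the methods' t-test, 1146 in T47D-PA6 over T47D-VC1 with the compared lines alone, and 7423, 3984 and 7114 with replicates 2 and 3 only. For the list genes, 33 results under their alternatives (723 in all) gave 499 calls kept and 224 lost, and 0 changed direction. Probes near the lowest signal well above background, such as the second TBX3 probe, limit what a dim gene can show.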
